A study of Mus musculus with 2 samples.

Results

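The genes of the TGF-beta, BMP and activin pathway were described in total RNA of the mouse heart. The set was chosen by gene name and holds the protein-coding genes for the ligands, receptors, Smads, latent TGF-beta binding proteins and several secreted inhibitors of this family. It has 62 members among 55536 mouse genes, of which 22028 are protein-coding. Of the 62 members, 32 were detected, meaning 1 TPM or more in both libraries; TPM is a level that is corrected for transcript length and scaled to the same sum in each library. This is 51.6%, beside 50.2% of all protein-coding genes.

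The samples were hearts of 2 female B6CASTF1/J mice, a first-generation cross of C57BL/6J and CAST/EiJ, aged 36 days, for which the labels name no treatment. Animal 3 is replicate 1 and animal 4 is replicate 2, and both carry one donor identifier in the labels. RNA was extracted with a Norgen tissue kit, and 300 ng went into each library with ERCC spike-ins, synthetic RNAs of known amount. The animals form 1 group, so the data give levels in the heart and the difference between the animals, and no test between conditions.

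Ligands of this family are made as precursors that are cut by convertases, and the C-terminal part forms the active dimer. TGF-beta stays bound to its own propeptide and to a latent binding protein in the matrix until it is released. A dimer joins type II and type I receptor kinases, and the type I receptor phosphorylates Smads at their C-terminal end: Smad2 and Smad3 after TGF-beta and activins, Smad1, Smad5 and Smad9 after BMPs. These enter the nucleus with Smad4, and Smad6 and Smad7 hold the pathway back. In the heart the family is known for its part in valve and chamber development, fibrosis and vessel integrity.

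The cut site and the receptor's target are the places where the detected ligands and the Smads can be compared in the coding sequence. Inha, a detected inhibin subunit, was not included in this comparison. For each ligand, 30 bases of the leading protein-coding transcript (GENCODE M21, mm10) are shown 5′ to 3′ around the 4 codons, in capitals, that begin and end with arginine and lie within 100 to 150 residues of the protein's end.
Tgfb1, chr7:25697226-25697255, plus strand: cacagctcaCGGCACCGGAGAgccctggat
Tgfb2, chr1:186630627-186630656, minus strand: tccagccggCGGAAGAAGCGCgctttggat
Tgfb3, chr12:86062045-86062074, minus strand: ggcagtcagAGGAAGAAGAGGgccctggac
Bmp10, chr6:87434145-87434174, plus strand: tcgtccgctCGGATCAGGAGGaacgccaag
Bmp4, chr14:46384201-46384230, minus strand: acccgcagaAGGGCCAAACGTagtcccaag
Bmp6, chr13:38485834-38485863, plus strand: gtccacgtgCGCACCACCAGGtcagcctcc
Inhba, chr13:16026758-16026787, plus strand: cctcatcgcAGGCGTAGGCGGggcttggag
The motif leaves 112 residues after it in Tgfb1, Tgfb2 and Tgfb3, 108 in Bmp10, 116 in Bmp4 and Inhba and 139 in Bmp6. Places were counted with lysine or arginine before the last arginine, except in Bmp6, which has no such place and where any residue was allowed. Counted in this way, the motif is matched at 1 place in this range in each of them except Inhba, where 2 overlapping places match.

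For the Smads, the last 33 coding bases are shown, with the last 4 codons before the stop in capitals.
Smad1, chr8:79339649-79339681, minus strand: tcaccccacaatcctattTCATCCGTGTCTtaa
Smad5, chr13:56737446-56737478, plus strand: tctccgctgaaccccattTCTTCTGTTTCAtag
Smad9, chr3:54797469-54797501, plus strand: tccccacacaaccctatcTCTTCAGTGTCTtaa
Smad3, chr9:63650262-63650294, minus strand: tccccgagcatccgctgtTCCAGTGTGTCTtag
Smad6, chr9:63953524-63953556, minus strand: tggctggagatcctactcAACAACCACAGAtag
The 4 codons hold 3 serines in Smad1, Smad3, Smad5 and Smad9, written with different codons, and 0 in Smad6, an inhibitory Smad that receptors do not activate in this way.

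The authors deposited a pair of quantifications of the same reads; the first gives the levels below, and the second, made against the transcripts alone, is named where it is used. The libraries held 39053337 and 38332175 expected counts (estimated reads) in sum, of which the ERCC spike-ins took 0.532% and 0.427%. A count of 0 allows up to 3 counts, which is 0.0772 and 0.0786 CPM of the mouse total. Cardiomyocyte markers (5 of 5 detected, summed TPM 16484 and 16992) fit the label of heart, and of 4 hepatocyte and 4 skeletal muscle markers none was detected. In bulk tissue, fewer cells of a type and less RNA per cell cannot be told apart. Intervals and limits cover counting error only.

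The 32 detected members had a median mean TPM of 7.62, beside 8.73 for all detected protein-coding genes. The highest was Ltbp4 (ENSMUSG00000040488.17, mm10 chr7:27305136-27337692, minus strand), a latent TGF-beta binding protein, at 89.0 ± 5.71 TPM (mean ± SD, n = 2), above 97.1% of protein-coding genes. Ltbp4 was followed by Fstl1 (32.1 ± 4.71), Smad4 (26.7 ± 0.0849), Bmpr1a (24.9 ± 1.17) and Tgfbr3 (18.7 ± 0.841). Ligands stood lower in the mean of the libraries. The highest of them, Bmp10, had the largest difference in TPM units between the animals, 20.7 against 9.46. In replicate 1 Bmp10 was therefore above Tgfbr3 (18.1 TPM). The undetected members are given below by their class.

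**Figure D1:**
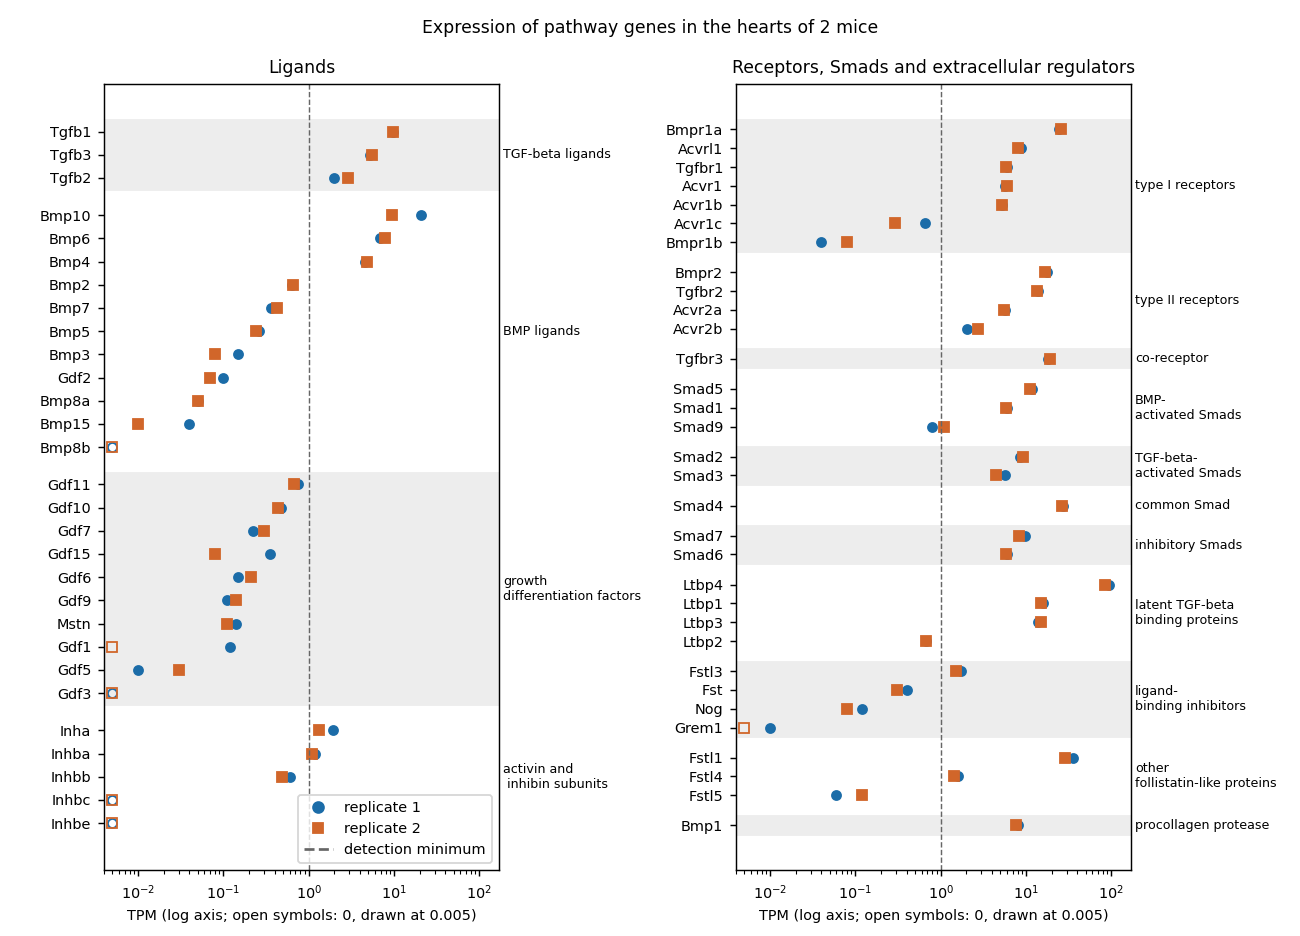
TPM of the members in replicate 1 (circles) and replicate 2 (squares) on a log axis, grouped by role, with the detection minimum of 1 TPM as a dashed line and values of 0 as open symbols. Most pairs of symbols above the line overlap and Bmp10 is the widest pair there, while pairs below it, such as Acvr1c and Gdf15, often stand apart; all 10 growth differentiation factors lie left of the line.

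All 3 TGF-beta ligands were detected. Tgfb1, the most widely made of them, had 9.64 TPM in replicate 1 and 9.73 in replicate 2. Tgfb3, known for its role in palate closure, had 5.29 and 5.48 TPM. Tgfb1 therefore took 55.3 ± 2.41% (SD, n = 2) of the TPM of the 3 ligands in these hearts. Tgfb2, which guides outflow tract and valve formation in the embryo, had 1.97 and 2.93 TPM from 261 and 349 counts. On counts scaled by TMM, the log2 ratio of replicate 2 over replicate 1 was 0.52 for Tgfb2 (95% counting interval 0.29 to 0.76), which is below the 1.5-fold bound used here, while those of Tgfb1 (0.09) and Tgfb3 (0.11) had intervals that include 0.

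Of 11 BMP ligands, 3 were detected. Bmp10, a ligand of the atrial heart muscle that circulates and acts on endothelial cells, led them with 20.7 TPM in replicate 1 and 9.46 in replicate 2, from 2861 and 1264 counts. Bmp10 is a single-transcript gene (ENSMUSG00000030046.6, mm10 chr6:87428994-87437677, plus strand). Its share of the TPM of the class was 61.3% in replicate 1 and 40.1% in replicate 2. Bmp6, an endothelial signal that sets hepcidin and so iron balance in the liver, had 6.94 and 7.83 TPM (log2 ratio 0.26, interval 0.11 to 0.40). The ratio of Bmp10 to Bmp6 was thus 2.99 in replicate 1 and 1.21 in replicate 2, and Bmp10 stayed the higher of the pair in both. Bmp4, a ligand of mesoderm and outflow tract development, had 4.52 and 4.78 TPM from 142 and 147 counts.

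The other 8 BMP ligands were not detected. Bmp2, the valve-inducing ligand of the embryonic atrioventricular canal, was the nearest to the line at 0.64 and 0.65 TPM. Bmp7 had 0.36 and 0.43, Bmp5 0.26 and 0.24, and Bmp3 0.15 and 0.08 TPM. Gdf2, which encodes BMP9, the liver-made partner of BMP10 in the circulation, had 0.10 and 0.07 TPM from 9 and 6 counts. Bmp8a (0.05 and 0.05 TPM) and the oocyte ligand Bmp15 (0.04 and 0.01 TPM) rested on 4 counts or fewer in each library, and Bmp8b had 0 counts in both. The 2 ligands of the receptor ALK1, BMP9 and BMP10, were thus on opposite sides of the detection line in this tissue.

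None of the 10 growth differentiation factors was detected. Gdf11 was the highest at 0.75 and 0.67 TPM, and its close relative Mstn, the myostatin that limits skeletal muscle mass, had 0.14 and 0.11 TPM. Gdf10 had 0.47 and 0.44 TPM. Gdf15, a stress-induced hormone, had 14 counts in replicate 1 and 3 in replicate 2 (0.35 and 0.08 TPM). Gdf7, Gdf6, the oocyte factor Gdf9, the joint factor Gdf5 and Gdf3 ranged from 0 (Gdf3 in both libraries) to 0.30 TPM (Gdf7 in replicate 2). Gdf1 was listed at 0.12 and 0 TPM, but 100% of its exon bases are shared on the same strand with Cers1, so its value is uncertain.

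Among the 5 activin and inhibin subunits, 2 were detected. Inha, the alpha subunit that makes a dimer an inhibin, had 1.94 and 1.31 TPM from 84 and 55 counts. Inhba, the beta A subunit of activin A, had 1.19 and 1.10 TPM. Counts of Inhba were 189 and 127, a log2 ratio of -0.47 (interval -0.81 to -0.14), which is larger than its difference in TPM. Inhba-201 held 74.8% of the gene's TPM in replicate 1, and Inhba-202 led narrowly with 50.9% in replicate 2. TPM is corrected for transcript length, and the part of this split in the gap between counts and TPM was not tested. Inhbb (0.60 and 0.49 TPM) was not detected, and Inhbc and Inhbe, subunits known from liver, had 0 counts in both libraries.

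All but 2 of the type I receptors were detected. Bmpr1a (ALK3), the BMP receptor needed for heart development, had 24.1 and 25.7 TPM and took 49.0 ± 1.74% of the TPM of the class. Its log2 ratio was 0.22 (interval 0.15 to 0.29), a small difference seen at high depth. Acvrl1 (ALK1), the endothelial receptor for BMP9 and BMP10, had 8.82 and 8.02 TPM. Tgfbr1 (ALK5), the TGF-beta receptor, had 6.03 and 5.83 TPM, Acvr1 (ALK2) 5.62 and 6.05, and the activin receptor Acvr1b (ALK4) 5.19 and 5.25. The order of Tgfbr1 and Acvr1 changed between the animals, so these neighbours did not differ beyond the spread.

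The other 2 type I receptors, Acvr1c and Bmpr1b, lay below 1 TPM. Acvr1c (ALK7), a receptor for activin B and other ligands that is best known from adipose tissue, had 0.65 TPM in replicate 1 and 0.29 in replicate 2, from 126 and 52 counts (ENSMUSG00000026834.13, mm10 chr2:58267453-58357895, minus strand). Bmpr1b (ALK6), a receptor of cartilage and gonads, had 0.04 and 0.08 TPM from 7 and 12 counts.

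All 4 type II receptors were detected, and Bmpr2 and Tgfbr2 stood above the other two. Bmpr2, the BMP type II receptor whose loss is known from pulmonary arterial hypertension, had 17.4 and 16.7 TPM. Tgfbr2, the TGF-beta type II receptor, had 13.7 and 13.3 TPM. The ratio of Bmpr2 to Tgfbr2 was 1.28 and 1.25, so their order was the same in both hearts. Acvr2a, an activin and BMP receptor, had 5.71 and 5.56 TPM. Its paralogue Acvr2b had 2.04 and 2.74 TPM from 169 and 226 counts, a log2 ratio of 0.52 (interval 0.23 to 0.82). The co-receptor Tgfbr3 (betaglycan), which presents TGF-beta2 and binds inhibin, was above each of them at 18.1 and 19.3 TPM.

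Among the Smads, the common partner Smad4 was the highest at 26.8 and 26.7 TPM. Smad5 had 11.9 and 11.0 TPM and Smad1 6.02 and 5.83, so that Smad5 was 1.98 and 1.89 times Smad1 among the BMP-activated Smads. Smad9, the third of them, was on either side of the detection line at 0.80 and 1.09 TPM (133 and 175 counts, log2 ratio 0.50, interval 0.17 to 0.84). It was the only member at 1 TPM in just 1 library.

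Of the TGF-beta-activated Smads, Smad2 had 8.41 and 9.19 TPM and Smad3 had 5.62 and 4.49. These differed in opposite directions between the animals, with log2 ratios of 0.18 (interval 0.05 to 0.32) and -0.28 (interval -0.44 to -0.12). With spike-in counts as the scale, the log2 ratios were 0.42 for Smad2 and -0.04 for Smad3. The ratio of Smad2 to Smad3 was 1.5 in replicate 1 and 2.05 in replicate 2. Among the inhibitory Smads, Smad7, which acts on both branches, had 9.65 and 8.21 TPM (log2 ratio -0.21, interval -0.34 to -0.08). Smad6, which acts mainly on the BMP branch, had 6.01 and 5.87 TPM.

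The latent TGF-beta binding proteins held the highest TPM of any class, 119.5 ± 5.43 in sum. Ltbp4, an elastic fibre protein, took 74.5 ± 1.39% of it with 93.0 and 85.0 TPM. Ltbp1, which anchors latent TGF-beta in fibronectin-rich matrix, had 15.7 and 14.8 TPM, and Ltbp3 had 13.9 and 15.2. The ratio of Ltbp4 to Ltbp1 was 5.93 and 5.74 in the 2 hearts. Ltbp2, which does not bind latent TGF-beta, had 0.68 and 0.68 TPM and was below the line. In the second quantification Ltbp2 had 1.09 and 1.02 TPM, the only member that crossed the line upwards there in both libraries.

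Of the 5 ligand-binding inhibitors among the members, 4 were not detected. Fstl3, a follistatin-like antagonist of activin and myostatin, was the one detected, at 1.75 and 1.5 TPM. Of its exon bases, 47.3% lie opposite exons of Prss57, which had 0.05 and 0 TPM. Follistatin itself, Fst, had 0.40 and 0.31 TPM, and noggin (Nog) had 0.12 and 0.08. The gremlin Grem1 was near 0, with 1 and 0 counts. Fstl1, a glycoprotein of the epicardium and of fibroblasts that shares the follistatin domain, had 35.5 and 28.8 TPM, with a log2 ratio of -0.12 (interval -0.19 to -0.05) on counts. Fstl4 had 1.58 and 1.45 TPM and Fstl5 0.06 and 0.12. Bmp1, which in spite of its name is a protease that trims procollagens and is matched by the name rule, had 8.12 and 7.58 TPM.

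Each of the 12 classes with 2 or more members had the same leading gene in both hearts. These leaders were thus the same although the level of Bmp10, the leader of the BMP ligands, differed. The second quantification gave the same leader in 12 of 12 classes. Its TPM was 1.17 times the first in the median detected member, from 0.728 (Bmp4) to 1.48 (Tgfb2), beside 1.16 for all detected protein-coding genes.

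The difference between the animals was then measured on counts. Among 13742 genes with 50 or more counts over both libraries, 2.63% were at least 1.5-fold lower and 2.51% at least 1.5-fold higher in replicate 2. Of the 41 members at that count, 2 were lower (Bmp10 and Acvr1c), 0 were higher and 39 were within 1.5-fold, with log2 ratios from -0.50 to 0.52. The median log2 ratio of the 41 members was 0.02, beside 0.00 over all 13742 genes. The counting interval excluded 0 for 15 members, 8 lower and 7 higher, which is a property of 31.3% of all genes at that count. With 1 library per animal and 1 group, no test was made. These 2 members among 41 are therefore given as values.

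**Figure D2:**
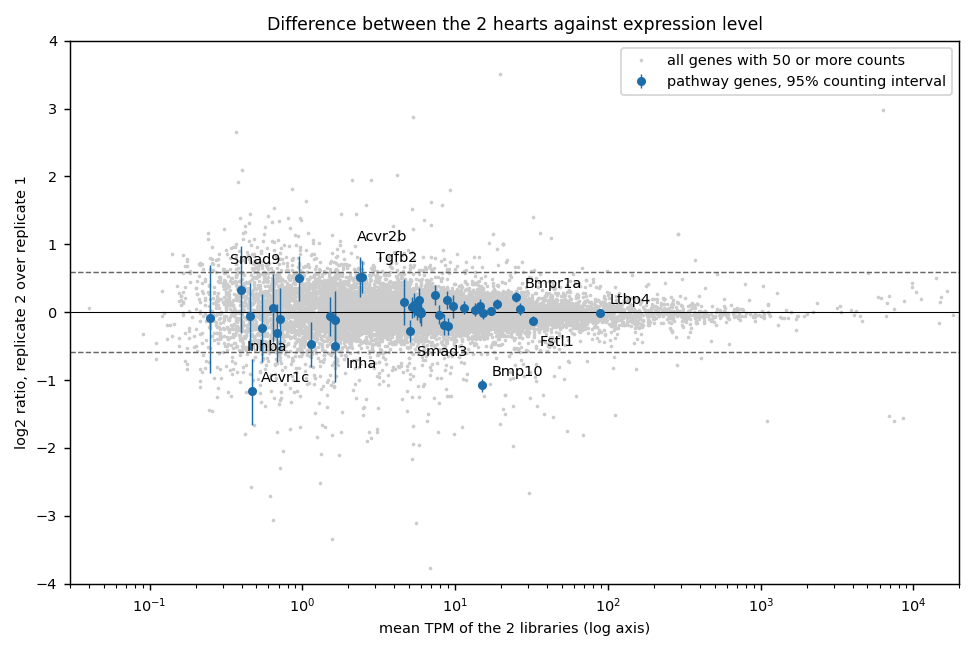
Log2 ratio of replicate 2 over replicate 1 against mean TPM (log axis) for genes with 50 or more counts over both libraries (grey) and for the 41 members among them (blue, bars are 95% counting intervals), with 1.5-fold as dashed lines; 19 genes lie beyond the axes. Bmp10 and Acvr1c lie below the lower dashed line at -1.08 and -1.17, and the other members lie between the lines.

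Bmp10 was 1 of the 2, with a log2 ratio of -1.08 (interval -1.17 to -0.98) in the first quantification and -1.09 in the second. Acvr1c, the other, had -1.17 (interval -1.67 to -0.70) and -1.13 from far fewer counts. Markers of other cell types also differed between these hearts. The 4 erythroid markers were all lower in replicate 2, with log2 ratios from -1.94 to -1.52 and a summed TPM of 24343 and 7896. Platelet markers were lower for 2 of 3 at the count minimum, with a summed TPM of 26.4 and 17.9. The 3 brown adipocyte markers were lower as well, with a summed TPM of 94.6 and 29.7, and Ucp1, the uncoupling protein of brown fat, had 52.6 and 7.95 TPM. The part of these markers in the values of Bmp10 and Acvr1c was not tested.

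Bmp10 is known to be made by atrial muscle. Of the 4 atrial markers, 0 were past 1.5-fold, with log2 ratios from 0.00 to 0.28 and a summed TPM of 1234 and 1241. The atrial light chain Myl7 had 256.6 and 264.9 TPM, and sarcolipin, Sln, had 30.6 and 35.7. The 3 endocardial markers also had 0 past 1.5-fold, from -0.13 to 0.04. Markers of cardiomyocytes, endothelium, fibroblasts, smooth muscle, pericytes and macrophages had 0 past 1.5-fold in each list.

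The stretch before the start of Bmp10 is shown because Bmp10 is the detected member past 1.5-fold; 45 of the 62 members have such an entry. The 250 bases upstream in RefSeq (GRCm38.p6, chr6:87428744-87428993, plus strand) are given with AGATAA, the letters of a GATA factor motif, in capitals.
Bmp10 upstream: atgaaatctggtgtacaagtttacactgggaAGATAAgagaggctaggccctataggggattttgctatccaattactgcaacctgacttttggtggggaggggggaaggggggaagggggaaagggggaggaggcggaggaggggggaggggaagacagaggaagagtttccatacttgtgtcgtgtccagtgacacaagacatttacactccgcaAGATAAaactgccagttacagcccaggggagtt
Counted from the start site, the motif begins at -219 and -33, on the gene's strand. On either strand, AGATAA is found in 9.99% of 32851 mouse windows of this length, CAGAC (a Smad3 and Smad4 motif) in 42.2%, GGCGCC (a Smad1 and Smad5 motif) in 9.59%, AAGTG (an NKX2-5 motif) in 40.7% and TATAAA (the TATA box) in 12.4%. None of these motifs contains another, and of the 5 only AGATAA is in the Bmp10 window. These are matches of letters in 1 window, and no binding was measured.

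**Figure D3:**
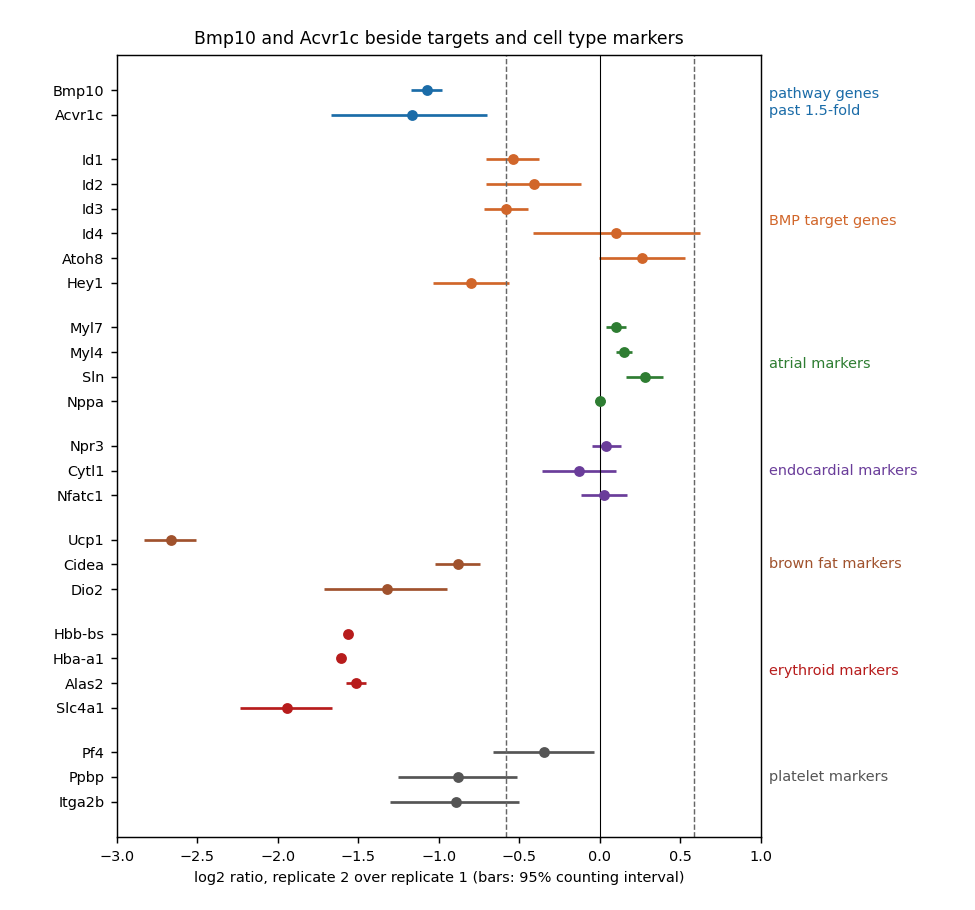
Log2 ratio of replicate 2 over replicate 1 with 95% counting intervals for Bmp10, Acvr1c, 6 BMP target genes and markers of atrial muscle, endocardium, brown fat, red cells and platelets, with 1.5-fold as dashed lines. Bmp10 and Acvr1c lie left of the lower line with the brown fat and red cell markers, the platelet markers Ppbp and Itga2b and the BMP target Hey1. Atrial and endocardial markers lie near 0.

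Other genes of the pathway were taken from 7 lists with 63 genes in all, of which 45 were detected, beside 50.2% of all protein-coding genes. The lists were chosen with earlier results of these data known, so the detected counts here and below describe the lists only. At the count minimum were 54 of them, with 0 higher and 3 lower in replicate 2, beside 2.51% and 2.63% of all genes at that count. Their median log2 ratio was -0.12, beside 0.00 over all genes at that count. Of 6 BMP target genes, 5 were detected and 1 was past 1.5-fold: Hey1, a repressor that also answers to Notch, with 6.43 and 3.31 TPM and a log2 ratio of -0.80 (interval -1.04 to -0.56). The inhibitors of DNA binding Id1 (29.3 and 19.3 TPM, log2 ratio -0.54) and Id3 (32.2 and 20.9 TPM, -0.58) were lower within that bound, and Id2 had -0.41. Id4 (0.10) and Atoh8 (0.26), a target in endothelium, lay on the other side of 0, and the median of the 6 was -0.47. Several of these values lie near the bound: in the second quantification and with DESeq2 size factors Id3 was past it too, with total counts Id1 and Id3 were, and with spike-in counts 0 of the 6 were. Whether these values are tied to Bmp10 was not tested.

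Of 10 TGF-beta target genes, 9 were detected and 1 was past 1.5-fold. It was Timp1, an inhibitor of matrix proteases, with 2.04 and 0.92 TPM from 48 and 22 counts (log2 ratio -1.01, interval -1.82 to -0.27). The fibrillar collagen Col3a1 was the highest of this list at 125.1 and 117.4 TPM, and Tgfbi the lowest of those detected at 6.96 and 7.59. The median log2 ratio of the list was -0.05.

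Genes that store or activate TGF-beta were 9 of 13 detected, and 1 was past 1.5-fold. Itgb6, the beta 6 chain of an integrin that releases TGF-beta, had 8.62 and 5.49 TPM (log2 ratio -0.62, interval -0.77 to -0.47). The value of Itgb6 was -0.55 in the second quantification, within the bound, and it was also within it with spike-in counts as the scale. The convertase Furin, which cuts the ligand precursors, was the highest of the list at 46.7 and 40.1 TPM, and Nrros, which holds latent TGF-beta on macrophages and microglia, the lowest detected at 2.10 and 1.70. Other extracellular inhibitors were 5 of 11 detected, with 0 past 1.5-fold, from the proteoglycan Dcn at 142.1 and 153.2 TPM to Bmper at 1.29 and 1.13. The other ligands Nodal, Lefty1, Lefty2 and Amh had at most 0.37 TPM.

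Among other receptors and co-receptors, 5 of 7 were detected. Hfe2 (hemojuvelin), a BMP co-receptor of muscle and liver, had 110.3 and 94.1 TPM, above every one of the 62 members in both libraries. In the second quantification it had 120.2 and 101.3 TPM and Ltbp4 114.6 and 115.0, so Ltbp4 was the higher of the pair there in replicate 2. Eng (endoglin), the endothelial co-receptor that works with ALK1, had 47.4 and 44.4 TPM. Bambi, a receptor without a kinase, was the lowest detected at 1.66 and 1.67. All 12 intracellular modulators were detected, from Tgif1, a Smad corepressor, at 2.18 and 1.92 TPM to the phosphatase Ppm1a at 93.0 and 87.8, and 0 of these 12 were past 1.5-fold.

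Transcripts were compared for the 32 detected members, of which 5 have 1 annotated transcript. Of the other 27, 23 (85.2%) had the same leading transcript in both libraries and both quantifications. Over all detected protein-coding genes with 2 or more transcripts the share was 67.3%, and the difference was not tested. The leader held over 90% of the gene's TPM in each library of both quantifications for 3 members, Bmpr2, Fstl1 and Smad6. The same share over all detected protein-coding genes was not computed, so this count describes the members only. Bmpr2-201 held 96.9% and 99.2% in the first quantification, while Smad2-201 led with 51.5% and 49.7%. Ltbp4-205 held 89.9% and 93.8% in the first quantification and 59.7% and 56.1% in the second, so the leader was the same and its share was not.

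**Figure D4:**
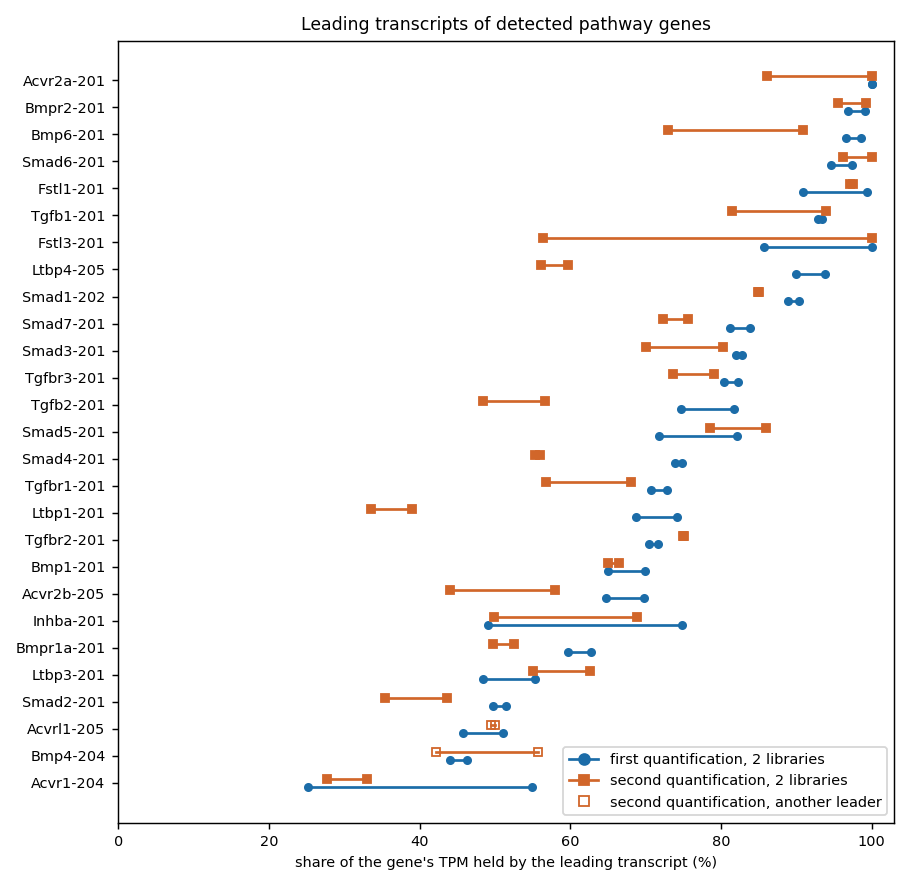
Share of the gene's TPM held by the transcript that leads when both libraries are averaged (named for the first quantification), for the 27 detected members with 2 or more transcripts, in the first (circles) and second (squares) quantification, with a line joining the 2 libraries. Open squares mark Acvrl1 and Bmp4, where another transcript leads the second quantification and its share is drawn.

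The 4 members whose leader differed were Acvr1, Acvrl1, Bmp4 and Inhba. Acvr1-203 led in replicate 1 with 43.0% and Acvr1-204 in replicate 2 with 54.9%. Acvrl1-205 led in the first quantification and Acvrl1-201 in the second. For Bmp4 the first quantification gave 44.0% and 46.3% to Bmp4-204, annotated as a retained intron, and the second gave the lead to coding transcripts, Bmp4-202 in replicate 1 and Bmp4-201 in replicate 2.

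Transcripts without a coding annotation took a median of 4.64% of a member's TPM in the first quantification, beside 8.34% for all genes compared. In the second quantification these medians were 6.98% and 10.3%. In the first quantification the highest shares after Bmp4 were those of Bmp1 at 32.6% and Ltbp3 at 31.1%, followed by Tgfb2 at 21.8%. The order differed in the second, where Tgfb2 had 38.2%, Bmp1 34.3%, Ltbp3 28.0% and Bmp4 6.03%. Exon bases were shared with another gene by 11 of the detected members, and the same share over all genes was not computed. For 9 of the 11 the other gene lies on the opposite strand. Among these, Txndc5 (13.7 and 12.6 TPM) covers 5.74% of the exon bases of Bmp6, and Orc4 (11.9 and 12.2 TPM) covers 7.84% of those of Acvr2a. It is not stated whether the counting used strand, so reads of these bases cannot be assigned with certainty.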

How the data were processed

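Total RNA of 2 hearts was quantified against mm10 and GENCODE M21, per the deposited description files. Aligner and counting program stand as not given in the sources used here. For gene and transcript, one quantification holds the deposited expected counts (estimated reads, not normalized), the authors' TPM, a posterior mean TPM and, per the file headers, FPKM. The second holds deposited estimated counts and TPM per transcript, which were summed per gene. The reference is of C57BL/6J, and the effect of CAST mismatches was not measured. Rows named by a number alone (26248, with 2.0 and 3.89 counts) were left out.

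Log2 ratios of replicate 2 over replicate 1 used expected counts rounded to whole numbers, 0.5 added, and TMM library sizes of edgeR 4.0.16, with exact conditional 95% intervals (binomial, Clopper-Pearson). No paired columns or groups exist, and no p was computed. Alternatives were DESeq2 1.42.0 size factors, total and spike-in counts, other filters and folds, and the second quantification; for the list genes these were added after the data were seen.

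Members came from a name pattern, and members, lists and tests were chosen with earlier results of these data known. Members are named with their values, except where an item is not reported here. From each list the highest and lowest detected gene and those past 1.5-fold are named, and other genes were chosen after their values were seen. Ctgf was matched as Ccn2.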

Additional observations from a re-analysis of the deposited data

How the results depend on the processing

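With a threshold of 0.5 or 2 TPM, FPKM, posterior mean TPM or the second quantification, between 27 and 36 members were detected, and with replicate 1 or 2 left out 33 or 32. With spike-in counts as the scale, the median log2 ratio of all genes moved to 0.24, 7.52% of genes were at least 1.5-fold higher and 1.43% lower, and 3 members were higher: Tgfb2 (0.76), Acvr2b (0.76) and Smad9 (0.74). Relative to that median they were within the bound. With genes of any count kept, 4 members were higher and 7 lower, beside 16.2% and 15.8% of all genes. At a minimum summed count of 200, 1 member (Bmp10) was lower, since Acvr1c has fewer counts. Under the other scales, filters and folds tried, 0 members were higher and 2 lower. In the other pathway lists, calls near 1.5-fold changed with the scale as given above. None of the 10 member ratios recomputed under these settings, a chosen part of the 41, changed sign. Spike-in counts raise every ratio alike, which brought Smad3 from -0.28 to -0.04. Smaller negative ratios of members outside the 10, such as Smad7 (-0.21), Acvrl1 (-0.19) and Fstl1 (-0.12), lie above 0 on that scale. By expected counts without length, Inhba led the activin subunits. No paired analysis was possible because the libraries form 1 group. Depth limits the members below 50 counts, and leaving out a library leaves no ratio.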
